A study of Mus musculus with 20 samples.

Results

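Differentiation without ZMYM2 was followed in 2 clonal *Zmym2*-/- lines, each sequenced as mESCs in serum and LIF (day 0) and as embryoid bodies (EBs) at day 3. The features compared were the genes present in both deposited count tables, 1 table of mESCs and 1 of EBs, joined by Ensembl identifier. Samples of the 2 stages were paired by their number, which was taken to mean the same line. There were 20159 genes in the mESC table and 20142 in the EB table, and 18926 in both. Of these, 18846 had at least 10 counts summed over the 4 *Zmym2*-/- libraries and were tested. The 4 libraries are part of 20 in the series. All lines came from V6.5, an mESC line of the strain C57BL/6x129/SvJae, and every line had been nucleofected with Cas9 and a guide RNA. The guide was against *Zmym2* in the *Zmym2*-/- lines (genotype label Zmym2 Knockout) and had no target in the 2 non-target control lines (genotype label Wild-Type), which were sequenced at the same stages. Each line was grown from 1 picked colony, so both lines of a genotype are clones of 1 parental line, and cultures were kept on gelatin without a feeder layer. Nothing in the labels places the libraries of a group in separate experiments. In the main test each line was its own reference (a replicate block), which removes differences in level between lines. Its p-values measure only how far the stage change differed between the paired lines of a genotype, with a spread shared across genes. That spread may be technical.

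mESCs in serum and LIF self-renew in a mostly naive state held by LIF, STAT3 and a circuit of transcription factors. When they aggregate without LIF, the naive circuit is shut down, formative and primed epiblast genes are switched on, and the first primitive streak and mesoderm genes follow. In the embryo this is also the period when promoters of many germline genes receive DNA methylation and are silenced in the soma. ZMYM2 is a zinc finger protein found with the LSD1, CoREST and HDAC complex and with PRC1.6, a Polycomb complex whose MGA and MAX subunits bind an E-box and whose E2F6 subunit binds an E2F site at germline gene promoters.

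Library sizes were 34858763 and 32016880 counts for the *Zmym2*-/- mESCs of lines 1 and 2, and 50937945 and 34285415 counts for their EBs. In the control libraries they were 33183937 to 47177872. Levels are given as CPM, which is counts divided by the library size after TMM scaling. At 1 CPM a library held 32 counts or more, with a counting error of 17.7% or less. *Zmym2* itself (ENSMUSG00000021945, chromosome 14, 56886653 to 56962701) stood at 29.4 and 27.6 CPM in the *Zmym2*-/- mESCs and 31.9 and 30.3 CPM in the *Zmym2*-/- EBs, with lines 1 and 2 in this order here and throughout. In the controls it stood at 68.2 and 72 CPM in mESCs and 91.2 and 91.7 CPM in EBs. All 4 *Zmym2*-/- libraries lay below all 4 control libraries, and between stages the log2 change in the *Zmym2*-/- lines was 0.13 (SE 0.08, adjusted p = 0.219, edgeR's quasi-likelihood test with Benjamini-Hochberg adjustment, as for every adjusted p below). The RNA of a frameshift allele can persist, so its level is a partial check of the genotype.

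The stage labels were checked against markers. The mESC markers *Pou5f1*, *Nanog*, *Sox2*, *Zfp42* and *Esrrb* were present at 261 CPM or more in both *Zmym2*-/- mESC libraries, and the EB markers *Fgf5*, *Otx2*, *Pou3f1*, *Dnmt3b*, *T* and *Mixl1* were all higher in both EBs than in both mESCs. Markers of other cell types were summed as RPKM over whole lists. Feeder fibroblast markers (13 genes, of which 1 was at 0 and 9 under 1 RPKM in every *Zmym2*-/- library) summed to 13.2 to 14.8 RPKM in mESCs and 18.9 to 20.2 RPKM in EBs. Trophectoderm markers (14 genes, of which 2 had no value and 1, *Elf5*, was at 0) summed to 30.7 to 31.8 and 55.9 to 56.6 RPKM, led by *Tfap2c* or the keratin *Krt18* in mESCs and by *Krt18* in EBs. Visceral endoderm markers (12 genes) summed to 433 to 452 and 221 to 240 RPKM, led by *Apoe*. Of these, 7 were under 1 RPKM in every *Zmym2*-/- library, among them *Afp* and *Ttr*, at 0.232 RPKM or below. Besides *Apoe*, those above 1 RPKM in some library were *Apoa2* (39.3 and 51.4 RPKM in mESCs, 5.67 and 10.5 RPKM in EBs), *Amn* (0.934 and 1.915, then 2.77 and 3.26), *Rbp4* (0.683 and 1.58, then 1.4 and 2.13) and *Trf* (1.93 and 2.47, then 2.105 and 1.73). Neuron markers (12 genes) summed to 154 to 164 RPKM in mESCs and 73.7 to 88.3 RPKM in EBs, led by *Tubb3* in mESCs and by *Nefl* in EBs. Blood and endothelial markers (12 genes) summed to 15.5 to 16.2 RPKM in mESCs and 3.10 to 3.22 RPKM in EBs, led by *Pecam1*, which is also an mESC gene, and the globin *Hba-a1* lay at 0.215 RPKM or below. Cardiomyocyte markers (10 genes) stood at 4.75 to 7.47 and 9.57 to 9.64 RPKM. The part of other cell types in the results was not tested. In whole cultures, fewer cells of a type and less RNA per cell cannot be told apart, nor can stage and the separate handling of mESCs and EBs.

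From mESC to EB, 4876 genes rose in the *Zmym2*-/- lines (25.9% of genes tested) and 4622 fell (24.5%). At a fold change of at least 4, 617 rose (3.27%) and 714 fell (3.79%). In the control lines 4810 rose (25.5%) and 4854 fell (25.8%). Counts in the gene lists below are to be read against these shares, and a list near them shows nothing particular to its members. The log2 changes of line 1 and line 2 correlated across the 18846 genes at r = 0.912, a description, since genes are not independent replicates. Of the 9498 genes called, 14 had opposite signs in the 2 lines and 155 had overlapping stages, as did 3 of the 1331 genes called at 4-fold or more. Protein-coding genes (14942 tested) rose in 4654 cases (31.1%) and fell in 4100 (27.4%). Long non-coding RNAs (1694 tested) rose in 136 cases (8.03%) and fell in 313 (18.5%). Pseudogenes (2011 tested), whose reads may be shared with their parent genes, rose in 58 cases (2.88%) and fell in 202 (10%).

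**Figure D1:**
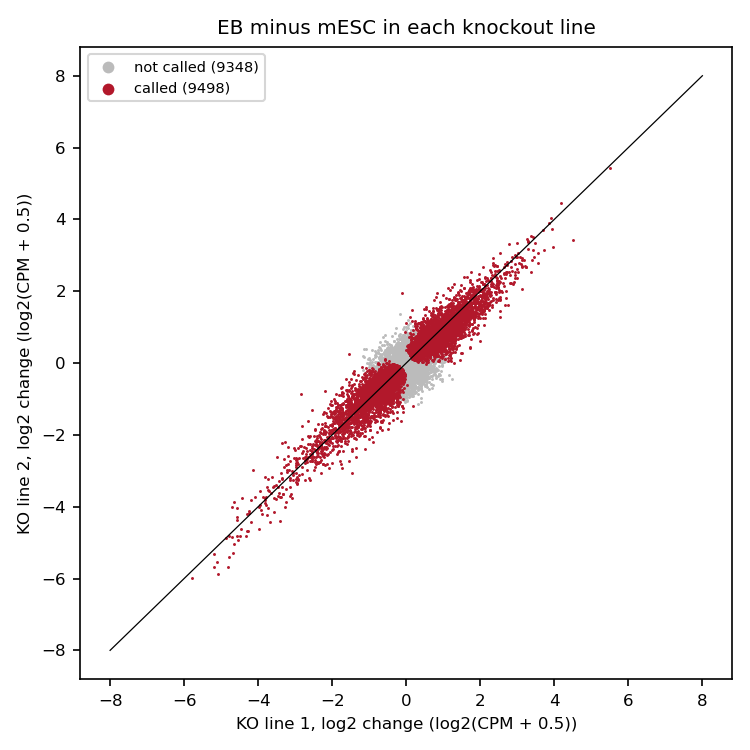
Log2 change from mESC to EB in *Zmym2*-/- (KO) line 1 (horizontal axis) and line 2 (vertical axis), each from log2(CPM + 0.5), with 1 point for each of 18846 genes. The 9498 genes called by edgeR (red) lie along the diagonal, and r across all genes was 0.912.

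Genes of the naive pluripotency list went down in both lines. All 20 genes of the list fell, 18 of them by at least 4-fold, with a median log2 change of -3.85. The median of all genes tested was -0.00, and that of the 20 genes in the control lines -4.07. The list also holds genes that are not factors of the circuit, such as the mannosidase *Manba*. It was written with earlier results of these data known. *Esrrb*, an orphan nuclear receptor of the naive circuit (ENSMUSG00000021255, chromosome 12, 86361117 to 86521628), went from 363 and 338 CPM to 9.51 and 6.14 CPM, a log2 change of -5.48 (SE 0.10, adjusted p = 6.7e-34). The Krüppel-like factor *Klf4* (ENSMUSG00000003032, chromosome 4, 55527143 to 55532466) went from 94.8 and 108 CPM to 2.96 and 2.06 CPM (log2 change -5.29, SE 0.11, adjusted p = 1.16e-31). *Fbxo15*, an F-box gene long used as an mESC reporter, went from 232 and 189.7 to 6.2 and 3.62 CPM. In each of these genes both EB libraries lay far below both mESC libraries. *Prdm14*, which represses primed and somatic genes in naive cells, fell from 11.2 and 9.96 to 0.271 and 0.113 CPM. The orphan nuclear receptor gene *Nr0b1* fell from 122 and 117 to 3.98 and 3.7 CPM. The smallest falls of the list were those of the homeobox factor *Nanog*, from 331 and 261 to 81.5 and 98.3 CPM (log2 change -1.72, SE 0.11), and of the ligand *Fgf4*, whose log2 change was -1.75.

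The genes that mark pluripotency in general, and are kept in the epiblast, moved less. Of 14 tested, 13 fell and 1 rose, with a median log2 change of -0.50. *Pou5f1* (ENSMUSG00000024406, chromosome 17, 35506018 to 35510772), the POU factor needed at every pluripotent stage, stood at 1759 and 1683 CPM in mESCs and 1409 and 1366 CPM in EBs, which did not overlap (log2 change -0.31, SE 0.06, adjusted p = 1.6e-05). Its HMG-box partner *Sox2* fell from 495 and 519 to 246 and 222 CPM. *Dppa5a*, an RNA-binding protein gene of mESCs, had the largest fall of the list, from 1583 and 1233 to 284 and 272 CPM. *Lin28a*, which blocks let-7 maturation, was the 1 that rose, from 444 and 407 to 455 and 505 CPM (log2 change 0.17, adjusted p = 0.0276). Without the replicate block it was not called (adjusted p = 0.0686), in DESeq2 (0.125) or with the mESC or the EB library of line 2 left out (0.794 and 0.796). Its log2 change was 0.04 without either library of line 2 and 0.31 without either of line 1.

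LIF signalling genes went down with the genes of the naive list. Of 14 tested, 12 fell and 2 rose (median log2 change -2.14, control lines -2.26), and 8 fell by at least 4-fold. The receptor genes *Lifr* and *Il6st* had log2 changes of -2.15 and -1.64, and the signal transducer *Stat3* went from 76.4 and 74.6 to 24.4 and 22.3 CPM. Its feedback inhibitor *Socs3* (ENSMUSG00000053113, chromosome 11, 117966079 to 117970047) went from 148 and 143 to 5.22 and 4.44 CPM (log2 change -4.90, SE 0.10, adjusted p = 6.3e-32). *Tfcp2l1*, a STAT3 target of the naive circuit, went from 54.9 and 33.6 to 3.46 and 3.28 CPM. *Bcl3*, an IκB-like cofactor of NF-κB, went from 64.5 and 52.9 to 2.24 and 2.06 CPM. The 2 genes that rose were *Socs1* and *Jak1*, with log2 changes of 0.44 and 0.32. The call of *Socs1* was lost without the replicate block (adjusted p = 0.0815) and without a library of line 1 (0.606 and 0.6), at log2 changes of 0.18 and 0.18. Without either library of line 2 the log2 change of *Socs1* was 0.70. The call of *Jak1* was lost without a library of line 2 (0.0929 and 0.0923).

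**Figure D2:**
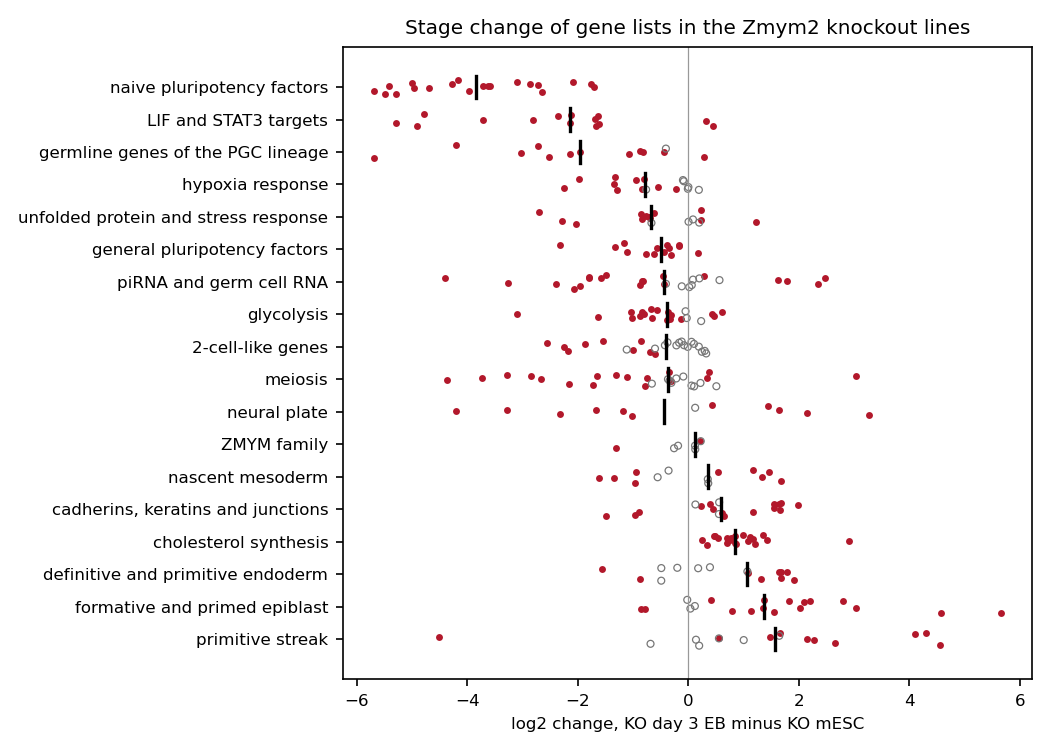
Log2 change from mESC to EB in the *Zmym2*-/- (KO) lines for the members of 18 gene lists, 1 point per gene (red, called; open, not called) with a black bar at the median of the list. Genes of the naive pluripotency list all lie to the left of 0 (median -3.85) and cholesterol synthesis genes all to the right (median 0.84).

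Formative and primed epiblast genes rose. Of 19 tested, 14 rose, 2 fell and 3 did not pass the test, with a median log2 change of 1.37, and 7 rose by at least 4-fold. *Fgf5* (ENSMUSG00000029337, chromosome 5, 98254184 to 98277030), the FGF ligand that marks the post-implantation epiblast, had the largest rise of any gene at 5 CPM or more, from 3.34 and 3.75 CPM in mESCs to 173 and 184 CPM in EBs (log2 change 5.65, SE 0.11, adjusted p = 1.5e-32). The homeobox factor *Otx2* (ENSMUSG00000021848, chromosome 14, 48657677 to 48673819) rose from 28 and 34.7 to 122 and 131 CPM (log2 change 2.02, SE 0.08), and the POU factor *Pou3f1* from 44.9 and 69.8 to 239.9 and 275 CPM. For all 3 genes both EB libraries lay far above both mESC libraries. The de novo DNA methyltransferase *Dnmt3b* (ENSMUSG00000027478, chromosome 2, 153649450 to 153687730) rose from 569.5 and 784 to 2296 and 2429.8 CPM, the kinase *Pim2* from 222 and 278 to 1005 and 1122 CPM, and the zinc finger factor *Sall2* from 23.1 and 23.5 to 196 and 186 CPM. The 2 genes of the list that fell were *Igfbpl1* (log2 change -0.78) and *Dpysl3* (-0.86).

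The control lines reached EB levels close to these from a lower start. In control mESCs *Fgf5* stood at 0.344 and 0.0558 CPM, *Otx2* at 6.06 and 5.67 CPM, *Pou3f1* at 19.7 and 16.2 CPM, *Pim2* at 34.8 and 21.7 CPM and *Dnmt3b* at 245 and 173 CPM, each below both *Zmym2*-/- mESC libraries. In control EBs *Fgf5* stood at 159 and 165 CPM, *Otx2* at 141 and 168 CPM and *Dnmt3b* at 2550.4 and 2642 CPM. The list's median log2 change was 2.43 in the controls, and in the test of the difference between genotypes (stage by genotype interaction) 15 of 19 genes had a log2 change below that of the controls and 2 one above it. Over all genes tested, 1020 had a log2 change below that of the controls (5.41%) and 1308 one above it (6.94%). The difference was -3.86 (SE 0.29, adjusted p = 5.54e-13) for *Fgf5*, -2.69 (SE 0.13, adjusted p = 8.98e-19) for *Otx2* and -1.83 (SE 0.11, adjusted p = 2.99e-15) for *Dnmt3b*. Without the mESC library of control line 1 the difference for *Fgf5* was -5.79. In the *Zmym2*-/- mESCs line 2 lay above line 1 in 14 of the 19 genes, as for *Dnmt3b*, and in the EBs it did so in 15 of the 19.

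FGF ligands and ERK feedback genes moved in both directions. Of 15 tested, 7 rose and 7 fell (median log2 change -0.10, control lines 0.87). The ligands *Fgf5*, *Fgf8* and *Fgf15* rose, with *Fgf8*, a streak ligand (ENSMUSG00000025219, chromosome 19, 45736798 to 45742915), going from 1.0 and 1.39 to 22.4 and 24.6 CPM and *Fgf15* from 22.7 and 20.1 to 54.1 and 56.8 CPM. The mESC ligand *Fgf4* fell from 186 and 172 to 49.2 and 57.1 CPM. Among ERK feedback genes the phosphatases *Dusp4* and *Dusp6* rose by 1.62 and 1.04 on the log2 scale, while the Sprouty gene *Spry4* (-0.94) and the immediate early gene *Egr1* (-1.08) fell. The receptor *Fgfr1* rose by 0.65 and *Fgfr2* did not pass the test (-0.10). The log2 change lay below that of the controls in 8 of the 15 genes (5.41% of all genes tested) and above it in 2 (6.94%).

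Primitive streak genes rose from low levels. Of 16 tested, 9 rose, 1 fell and 6 did not pass the test, with a median log2 change of 1.56 (control lines 1.19). The T-box factor *T* (ENSMUSG00000062327, chromosome 17, 8434423 to 8442496) stood at 0.148 and 0.284 CPM in mESCs and 5.53 and 4.61 CPM in EBs (log2 change 4.55, SE 0.35, adjusted p = 4.08e-14). The other T-box factor of the streak, *Eomes*, went from 7.0 and 6.68 to 40.5 and 45.9 CPM, and the ligand *Wnt3* (ENSMUSG00000000125, chromosome 11, 103774150 to 103817957) from 0.856 and 0.725 to 14 and 13.5 CPM. The homeobox gene *Mixl1* reached 1.57 and 2.06 CPM from 0.679 and 0.599 CPM, a call that was lost without a library of line 2 (adjusted p = 0.0502 and 0.0582). The 1 gene that fell was *Fgf17*, from 76.4 and 57.3 to 2.55 and 3.45 CPM. Over the 16 genes, the log2 change was above that of the controls in 5 (6.94% of all genes tested) and below it in 1 (5.41%). The 1 below was *Fgf8* (difference in log2 change -1.32, SE 0.30, adjusted p = 0.00208, and 0.0949 without the replicate block). Of Wnt targets, 9 of 13 rose and 1 fell, among them the feedback inhibitor *Axin2*, from 11.9 and 13.6 to 42 and 38.3 CPM, while the Wnt inhibitor *Notum* fell from 37.8 and 42.2 to 1.6 and 1.47 CPM. *T* rose by more than in the controls, which went from 0.709 and 0.447 to 3.94 and 1.88 CPM (difference in log2 change 2.24, SE 0.52, adjusted p = 0.00231), as did *Axin2* (1.24, adjusted p = 9.12e-08) and *Eomes* (1.04, adjusted p = 0.000241). The difference for *Eomes* had an adjusted p of 0.0555 without the replicate block, and that for *T* one of 0.0631, and 0.118 when the EB library of line 1 was left out. In DESeq2 the adjusted p for *Eomes* was 0.316. Its difference was 1.57 and 1.59 without the mESC or the EB library of control line 1, and 0.53 and 0.53 without those of control line 2 (adjusted p = 0.072 and 0.0787).

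Genes of the layers that follow the streak were mixed. Of 13 nascent mesoderm genes tested, 5 rose and 4 fell (median log2 change 0.35). *Twist1*, a basic helix-loop-helix factor of mesoderm, rose from 5.58 and 6.27 to 16.9 and 15.7 CPM, while the ligands *Lefty2* and *Bmp4* fell, with log2 changes of -1.34 and -1.61. *Mesp1* and *Tbx6* stood at or below 1.20 CPM in every *Zmym2*-/- library and did not pass the test. Of 15 endoderm genes, 7 rose and 2 fell (median log2 change 1.07, control lines -0.21). Among them the zinc finger factor *Gata4* went from 1.45 and 2.93 to 4.0 and 6.7 CPM, and the HMG-box factor *Sox17* from 0.502 and 0.0315 to 0.947 and 1.02 CPM, the latter call being lost without a library of line 2 (adjusted p = 0.23 and 0.247). The log2 change of *Sox17* was 1.91 with all libraries, 0.91 without either library of line 2, and 4.88 and 4.87 without the mESC or the EB library of line 1. The keratin *Krt8* went from 21.1 and 19.4 to 65.5 and 61.2 CPM and its partner *Krt18* (ENSMUSG00000023043, chromosome 15, 102028180 to 102032027) from 15.9 and 19.3 to 55.8 and 56.8 CPM. Over the 15 endoderm genes, both *Zmym2*-/- mESCs lay above both control mESCs in 1 (30.3% of all genes tested) and below them in 9 (30.4%). In EBs they lay above in 2 (26.1%) and below in 6 (25.4%). The zinc finger factor *Gata6*, of primitive endoderm, was at 0.207 and 0.347 CPM in mESCs and 0.425 and 0.283 CPM in EBs with overlapping stages. These levels rest on 18 counts in the mESCs and 32 in the EBs. *Gata6* fell in the controls, from 2.83 and 1.06 to 0.537 and 0.268 CPM (difference in log2 change 2.62, SE 0.68, adjusted p = 0.00672). The difference was not called without the replicate block (adjusted p = 0.0861) or in DESeq2 (0.114). It was 1.95 and 1.94 without the mESC or the EB library of *Zmym2*-/- line 1, and 2.36 without the mESC library of control line 1. Of 12 neural plate genes, 5 rose and 6 fell (median log2 change -0.45). *Pax6*, a paired-box factor of neural progenitors, fell from 28.8 and 18.7 to 7.75 and 7.01 CPM in the *Zmym2*-/- lines and rose from 5.67 and 2.96 to 8.08 and 6.49 CPM in the controls (difference -2.45, adjusted p = 5.98e-11), whereas *Nes*, an intermediate filament of progenitors, rose from 37.8 and 43.4 to 123 and 128 CPM.

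Nodal, Activin and BMP pathway genes gave 7 rises and 5 falls among 16 tested (median log2 change 0.08). The Activin-binding inhibitor *Fst* (ENSMUSG00000021765, chromosome 13, 114452290 to 114458951) had one of the largest rises of all genes, from 2.6 and 2.3 to 55.3 and 61.4 CPM (log2 change 4.57, SE 0.14, adjusted p = 3.96e-27). The ligand *Nodal* did not pass the test, at 86.3 and 70.6 CPM in mESCs and 82.9 and 89.5 CPM in EBs (log2 change 0.14). With library totals in place of TMM scaling it was called (log2 change 0.20, adjusted p = 0.0407). Without either library of line 1 the log2 change of *Nodal* was 0.34. Its co-receptor *Tdgf1* (-0.57) and its inhibitor *Lefty1* (-0.70) fell.

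Hox genes stayed at 5.45 CPM or below in every library, and 16 of 21 tested did not pass the test (2 rose, 3 fell, median log2 change 0.25, while in the controls 9 rose and 2 fell, median 1.3). *Hoxb1*, the most 3′ gene of its cluster, fell from 3.28 and 5.45 CPM in mESCs to 1.55 and 3.05 CPM in EBs, and in the controls rose from 0.129 and 0.112 to 1.55 and 1.05 CPM (difference in log2 change -4.36, SE 0.51, adjusted p = 3.31e-08). *Hoxb4*, of the same cluster, went from 2.69 and 3.97 to 1.7 and 2.43 CPM, and in the controls from 0.215 and 0.0837 to 1.19 and 1.26 CPM (difference -3.65, adjusted p = 1.88e-06). For both genes the *Zmym2*-/- mESCs lay above the control mESCs. The fall of *Hoxb4* in the *Zmym2*-/- lines was lost without the replicate block (adjusted p = 0.0847) and in DESeq2 (0.197), and that of *Hoxb1* without a library of line 1 (0.0655 and 0.0545). Of the 21 genes, 7 had a log2 change below that of the controls (5.41% of all genes tested) and 1 above it (6.94%).

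**Figure D3:**
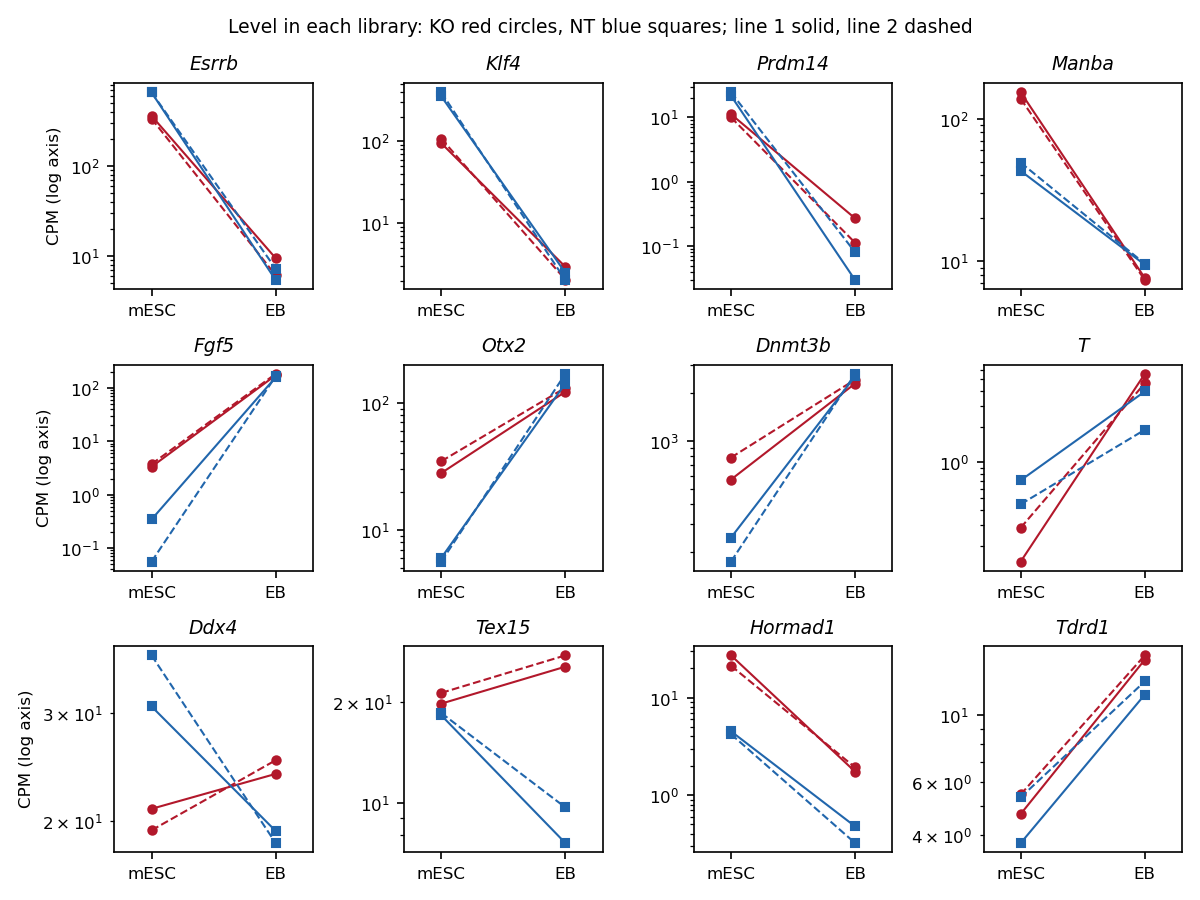
CPM on a log axis in each library for 12 genes, mESC to the left and EB to the right of each panel, *Zmym2*-/- (KO) lines as red circles and control (NT) lines as blue squares, with line 1 solid and line 2 dashed. For *Fgf5* and *Otx2* the *Zmym2*-/- mESCs lie above the control mESCs and the EBs of both genotypes lie close together, while *Ddx4* and *Tex15* rise in the *Zmym2*-/- lines and fall in the controls.

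By size of change, the 12 largest rises among genes of at least 5 CPM in EBs were, in order, *Fgf5*, *Zfp36l3*, *Fst*, *T*, *Shc4*, *Adamts6*, *Cxcl12*, *Fgf8*, *Dclk1*, *Spon1*, *Wnt3* and *Aadat*, with log2 changes of 4.10 to 5.65. *Zfp36l3* (ENSMUSG00000059334, chromosome X, 53774048 to 53776394), an RNA-binding protein of the tristetraprolin family, went from 0.266 and 0.252 to 11 and 11.8 CPM. The chemokine *Cxcl12* (ENSMUSG00000061353, chromosome 6, 117168535 to 117181367) went from 0.679 and 2.08 to 26 and 27.4 CPM, and *Shc4*, an adaptor of receptor tyrosine kinases, from 0.295 and 0.473 to 7.96 and 8.09 CPM. In these 3 genes both EBs lay far above both mESCs. *Adamts6* is a secreted metalloprotease, *Dclk1* a microtubule-associated kinase, *Spon1* a matrix protein and *Aadat* a mitochondrial aminotransferase. *Spon1* rose by less than in the controls, from 1.06 and 1.26 to 19.8 and 22.4 CPM against 0.945 and 0.67 to 38.6 and 40.6 CPM (difference in log2 change -1.40, adjusted p = 0.00039).

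The 12 largest falls among genes of at least 5 CPM in mESCs were *Mymx*, *Gm46332*, *Hal*, *Rbfaos*, *Gm47725*, *Ak7*, *Emp1*, *Gm14820*, *H2-M5*, *Prdm14*, *Jam2* and *2310043M15Rik*, with log2 changes of -7.08 to -5.63. *Mymx* (ENSMUSG00000079471, chromosome 17, 45600971 to 45602102), a micropeptide of myoblast fusion, went from 46.4 and 56 to 0.348 and 0.396 CPM (SE of the log2 change 0.15, adjusted p = 6.3e-32). *Jam2* (ENSMUSG00000053062, chromosome 16, 84774123 to 84825928), a junctional adhesion molecule, went from 53.8 and 84.3 to 1.43 and 1.16 CPM, and *Hal*, the histidine ammonia-lyase, from 7.85 and 10.1 to 0.116 and 0.0565 CPM. *Emp1*, a membrane protein, went from 7.2 and 5.99 to 0.193 and 0 CPM, and its EB counts came from 1 of the 2 lines. Its log2 change was -5.86, and -10.86 and -10.77 without the mESC or the EB library of line 1, when the paired line left has no EB counts and the value depends on the prior count. *Rbfaos*, an RNA antisense to *Rbfa*, went from 23.6 and 20.8 to 0.328 and 0.226 CPM. The libraries were stranded, but the strand setting of the counting is not given in the sources used here, so reads of the 2 partners may not be told apart. *Ak7* is an adenylate kinase of cilia and *H2-M5* a class I histocompatibility gene with close paralogs.

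Germline genes were followed with lists of primordial germ cell (PGC), meiosis and piRNA genes. Joined, these held 65 genes, of which 60 were tested and 8 rose, 35 fell and 17 did not pass the test (median log2 change -0.77, control lines -1.14, where 5 rose and 41 fell). Promoter sequences of 3 germline genes measured by the study, from RefSeq on GRCm38.p6, are shown because each holds an E-box, with the E2F letters as well in *Ddx4* and *Hormad1*, and because their genes took different courses. Each runs from 250 bases before to 50 bases after the gene's start in RefSeq, 5′ to 3′ on the gene's strand. That start can differ from the gene span given below, as it does for *Ddx4*. Capitals mark the E-box CACGTG and the E2F letters TTCCCGC, read on either strand (GCGGGAA on the other).
Ddx4, chr13:112652261-112652560, minus strand: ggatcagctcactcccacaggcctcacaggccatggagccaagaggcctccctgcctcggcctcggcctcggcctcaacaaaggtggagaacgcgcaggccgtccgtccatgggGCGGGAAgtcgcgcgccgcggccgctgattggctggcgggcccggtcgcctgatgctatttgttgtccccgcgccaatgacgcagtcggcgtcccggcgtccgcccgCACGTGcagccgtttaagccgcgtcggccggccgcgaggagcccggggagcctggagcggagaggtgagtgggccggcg
Hormad1, chr3:95559427-95559726, plus strand: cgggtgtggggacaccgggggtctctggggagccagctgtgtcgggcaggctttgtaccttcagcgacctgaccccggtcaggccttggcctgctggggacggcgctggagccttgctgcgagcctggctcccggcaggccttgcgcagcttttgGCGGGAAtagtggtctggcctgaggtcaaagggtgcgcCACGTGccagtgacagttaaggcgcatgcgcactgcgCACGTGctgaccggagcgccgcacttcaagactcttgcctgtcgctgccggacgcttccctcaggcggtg
Mael, chr1:166238695-166238994, minus strand: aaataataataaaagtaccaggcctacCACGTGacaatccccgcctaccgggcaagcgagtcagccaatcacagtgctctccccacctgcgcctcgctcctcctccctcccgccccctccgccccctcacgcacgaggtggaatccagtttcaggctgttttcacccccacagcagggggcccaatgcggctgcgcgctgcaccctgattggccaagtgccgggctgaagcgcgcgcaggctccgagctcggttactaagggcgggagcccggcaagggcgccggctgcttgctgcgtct

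The E-box was present in 2349 of 32851 promoters of this length (7.15%) and in 1525 of 15805 promoters of tested genes (9.65%). The E2F letters were in 4.60% and 7.88% of them. A promoter was matched for 50 of the 65 germline genes and for 12447 of the 18834 genes tested, too few for a comparison of these shares over gene lists, which would be void. A match is a description of these letters in this window and does not show that a factor binds.

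*Ddx4* (ENSMUSG00000021758, chromosome 13, 112598333 to 112652475), the Vasa helicase of germ cells, stood at 20.9 and 19.3 CPM in *Zmym2*-/- mESCs and 23.8 and 25.1 CPM in EBs. Both EBs lay above both mESCs (log2 change 0.28, SE 0.10, adjusted p = 0.0224), a call that was lost without the replicate block (adjusted p = 0.0555), in DESeq2 (0.122) and without line 2 at either stage (0.31 and 0.316). In the controls it fell, from 30.7 and 37.2 to 19.2 and 18.4 CPM, and the difference in log2 change was 1.13 (SE 0.15, adjusted p = 3.89e-07). *Hormad1* (ENSMUSG00000028109, chromosome 3, 95559677 to 95587671), a HORMA protein of the meiotic axis, fell from 27.1 and 21.2 to 1.74 and 1.92 CPM (log2 change -3.73, SE 0.17, adjusted p = 8.3e-21). It fell in the controls too, from 4.51 and 4.21 to 0.477 and 0.322 CPM, and the difference in log2 change did not pass the test (-0.28, SE 0.37, adjusted p = 0.72). *Mael* (ENSMUSG00000040629, chromosome 1, 166201201 to 166238747), of the piRNA pathway, fell from 19.7 and 25.8 to 10.9 and 14.9 CPM (log2 change -0.82, SE 0.12), against 9.23 and 9.13 to 7.43 and 5.85 CPM in the controls (difference -0.35, adjusted p = 0.236). For *Hormad1* and *Mael* each *Zmym2*-/- library lay above both control libraries of its stage. Over the 60 germline genes, both *Zmym2*-/- mESCs lay above both control mESCs in 30 (30.3% of all genes tested) and below them in 12 (30.4%). In EBs they lay above in 44 (26.1%) and below in 1 (25.4%). The count filter used the *Zmym2*-/- libraries alone, which favours genes that are high there, so these counts are a description.

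Of 13 PGC genes tested, 11 fell, *Ddx4* rose and *Dazl* did not pass the test (median log2 change -1.96). *Tfap2c*, an AP-2 factor, fell from 52.5 and 38.3 to 3.63 and 1.3 CPM, *Dppa3*, a protector of maternal methylation, from 79.4 and 56.9 to 12.6 and 8.2 CPM, and *Prdm1*, the PGC specification factor, from 15.9 and 9.67 to 3.52 and 2.23 CPM. *Dppa3* and *Prdm14* are also in the naive list. Of 27 meiosis genes, 3 rose and 14 fell (median log2 change -0.37, control lines -0.88). *Stra8*, the inducer of meiotic entry, fell from 11.4 and 17.7 to 0.715 and 0.622 CPM, and the cohesin subunit *Stag3* from 43.2 and 52 to 12.1 and 16.8 CPM. The cohesin subunit *Rad21l* rose from 0.059 and 0.252 to 1.06 and 1.41 CPM, and *Rec8*, another meiotic cohesin, did not pass the test at 19.6 and 22.2 CPM in mESCs and 21.9 and 21.5 CPM in EBs. *Tex15*, a germ cell factor of meiosis and transposon silencing, rose from 19.8 and 21.4 to 25.6 and 27.7 CPM and fell in the controls from 18.3 and 18.6 to 7.57 and 9.69 CPM (difference 1.47, SE 0.16, adjusted p = 7.02e-09). It was picked after its values were seen, as were *Rad21l* and, below, *Mov10l1*.

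Of 26 piRNA and germ cell RNA genes, some of which are in the other 2 germline lists too, 5 rose and 14 fell (median log2 change -0.45, control lines -1.13). The Tudor gene *Tdrd12* fell from 157 and 174 to 28 and 35.5 CPM, the PIWI gene *Piwil2* from 26.2 and 32.8 to 10.2 and 10.7 CPM, and *Rnf17*, a RING and Tudor protein, from 98.4 and 77.8 to 32.7 and 26.2 CPM. *D1Pas1* fell from 60.8 and 48.7 to 16.8 and 14.8 CPM, but may share reads with its near copy *Ddx3x*. The Tudor gene *Tdrd1* (ENSMUSG00000025081, chromosome 19, 56826209 to 56870012) rose from 4.69 and 5.45 to 15.3 and 15.8 CPM, and also in the controls, from 3.76 and 5.33 to 11.7 and 12.9 CPM. The helicase *Mov10l1* did not pass the test at 9.0 and 9.26 CPM in mESCs and 9.41 and 9.98 CPM in EBs, and fell in the controls from 12.8 and 11.7 to 5.1 and 4.35 CPM (difference 1.46, adjusted p = 1.47e-06). *Sohlh2*, a basic helix-loop-helix factor of germ cell differentiation measured by the study, fell from 14.9 and 10.3 to 10.2 and 8.23 CPM, against 6.46 and 3.71 to 2.12 and 1.69 CPM in the controls (difference in log2 change 0.95, adjusted p = 0.00583). Without the replicate block neither its fall (adjusted p = 0.154) nor this difference (0.156) was called. Over the 60 germline genes, the log2 change was above that of the controls in 14 (6.94% of all genes tested) and below it in 3 (5.41%).

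**Figure D4:**
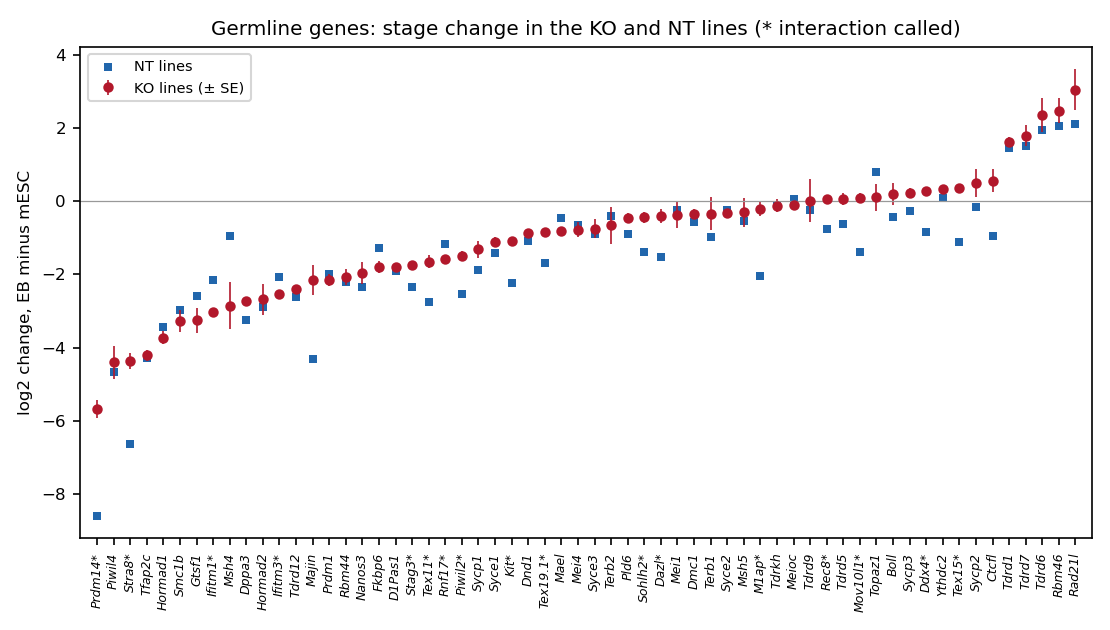
Log2 change from mESC to EB of 60 germline genes, ordered by the *Zmym2*-/- value (red circles, with bars for the SE) beside the control value (blue squares), with an asterisk where the stage by genotype interaction was called. The *Zmym2*-/- points span -5.68 to 3.04, and *Tex15*, *Mov10l1* and *M1ap* show control points far below them.

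The study's own target genes are 165 genes higher in *Zmym2*-/- embryos at E8.5, chosen on embryos and not on these libraries. Of these, 131 were tested here, and 23 rose and 47 fell from mESC to EB (median log2 change -0.35, control lines -0.58). Both *Zmym2*-/- libraries lay above both control libraries in 99 of the 131 as mESCs (30.3% of all genes tested) and in 109 as EBs (26.1%). Both lay below them in 12 as mESCs (30.4%) and in 4 as EBs (25.4%). The count filter used the *Zmym2*-/- libraries alone, which favours genes that are high there. Among the 95 expressed from their annotated promoter 82 were tested, and 15 rose and 33 fell (median -0.45, control lines -0.79). Their log2 change was above that of the controls in 18 (6.94% of all genes tested) and below it in 4 (5.41%). *Usp26*, a germline deubiquitinase, did not pass the test at 36.7 and 26.7 CPM in mESCs and 38.4 and 27.9 CPM in EBs (log2 change 0.06, SE 0.11, adjusted p = 0.654), while the controls had 0.472 and 0.419 CPM in mESCs and 0.0298 and 0.0537 CPM in EBs. Of the 46 fusion transcripts that start in an L1MdT element (a young LINE-1), 32 genes were tested, with 6 rises and 7 falls (median -0.00). In 28 of the 32 both *Zmym2*-/- mESCs lay above both control mESCs (30.3% of all genes tested), and in 30 both EBs did (26.1%). *Morc1*, a germline silencer of transposons, fell from 127 and 117 to 9.28 and 9.44 CPM (log2 change -3.71, SE 0.10), *Clca3b*, a regulator of chloride channels, from 12.9 and 8.57 to 3.44 and 2.4 CPM and *Gc*, the vitamin D binding protein, from 13 and 13.1 to 6.72 and 5.88 CPM. *Nckap1l*, an actin regulator of blood cells, rose from 10.3 and 6.14 to 31.5 and 27.7 CPM, and *Reg2* did not pass the test at 1.3 and 1.39 CPM in mESCs and 1.14 and 1.3 CPM in EBs. For *Morc1*, *Clca3b* and *Gc* both *Zmym2*-/- libraries lay above both control libraries at each stage. Of 14 fusions with another transposon, 9 were tested, with 2 rises and 4 falls (median -0.25), and the phospholipase gene *Pla2g1b* fell, from 96.4 and 99.8 to 76.5 and 88.6 CPM, against 19.3 and 13.8 to 6.89 and 5.8 CPM in the controls (difference 1.12, SE 0.13, adjusted p = 5.35e-08). The fall of *Pla2g1b* was lost without the replicate block (adjusted p = 0.133). Of 10 genes in neither class 8 were tested, with 0 rises and 3 falls (median -0.97, 0 rises at an unadjusted p under 0.05 and 0 in DESeq2). *Usp26*, *Morc1*, *Nckap1l* and *Pla2g1b* were picked after their values were seen.

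Genes of the 2-cell-like state, which mark a rare mESC state that resembles the 2-cell embryo, were read at both stages in the *Zmym2*-/- lines. In all 24 tested both *Zmym2*-/- libraries lay above both control libraries, in mESCs (30.3% of all genes tested) and in EBs (26.1%). The count filter used the *Zmym2*-/- libraries alone, so genes at or near 0 in the controls entered only through the *Zmym2*-/- lines. The 24 of 24 was thus partly set by the filter and is a description. Apart from *Zfp809*, the genes of this list stood at 0.0848 to 24.9 CPM in the *Zmym2*-/- libraries and at 0 to 0.215 CPM in the controls. From mESC to EB 9 fell, 0 rose (0 at an unadjusted p under 0.05, 0 in DESeq2) and 15 did not pass the test, with a median log2 change of -0.40. Without the replicate block 5 fell, and DESeq2 called 2 falls. *Zscan4c*, a zinc finger gene of telomere maintenance, stood at 21.8 and 7.18 CPM in mESCs and 16.7 and 7.78 CPM in EBs, and *Zscan4d* at 24.9 and 6.9 and then 19.6 and 7.8 CPM. Neither passed the test. *Zfp352* fell from 2.86 and 0.819 to 0.773 and 0.226 CPM and *Tdpoz4* from 4.13 and 1.73 to 0.638 and 0.339 CPM, and both were at 0 counts in the 4 control libraries. DESeq2 called neither of these falls (adjusted p = 0.757 and 0.662). Line 1 lay above line 2 in 23 of the 24 genes at each stage. The *Zscan4* and *Usp17l* families are near-identical copies that may share reads, so their single members are uncertain.

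Genes of the silencing machinery moved in both directions. Of 12 DNA methylation genes 4 rose and 4 fell (median log2 change -0.08). The naive cofactor *Dnmt3l* fell from 628 and 551 to 119.7 and 104 CPM and the dioxygenase *Tet2* from 43.4 and 45.4 to 2.36 and 3.39 CPM, while the maintenance enzyme *Dnmt1* did not pass the test at 337 and 344 CPM in mESCs and 331 and 322 CPM in EBs. *Dnmt3a*, the other de novo enzyme, did not pass it at 301 and 405 CPM in mESCs and 357 and 402 CPM in EBs, and rose in the controls from 204 and 149 to 448 and 477 CPM (difference -1.28, adjusted p = 5e-11). With library totals in place of TMM scaling its *Zmym2*-/- change was called as a rise (log2 change 0.18, adjusted p = 0.0482). Of 7 ZMYM family genes, *Zmym3* fell from 46.8 and 48.5 to 19.9 and 18.6 CPM and *Qrich1* rose by 0.20 on the log2 scale, a call that was lost in DESeq2 (adjusted p = 0.0775) and with any of the 4 *Zmym2*-/- libraries left out (0.149 at most). LSD1, CoREST and HDAC genes gave 5 rises and 4 falls among 12 (median 0.15), PRC1.6 genes 4 and 5 among 14 (0.04), and TRIM28, SETDB1 and HUSH genes 5 and 6 among 14 (-0.09). The demethylase *Kdm1a* (LSD1) went from 369 and 352 to 277 and 276 CPM, the PRC1.6 subunit *E2f6* from 30.8 and 31.1 to 50.3 and 56.5 CPM and *Zfp57*, a keeper of imprints, from 210.1 and 228 to 14.7 and 16.7 CPM.

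Metabolic genes moved in groups. All 20 cholesterol synthesis genes rose, with a median log2 change of 0.84 (control lines 0.87, where 17 rose and 1 fell). *Hmgcs1*, an early enzyme of the pathway, went from 129 and 107 to 329.8 and 302 CPM (log2 change 1.42, SE 0.07, adjusted p = 8.41e-21). Of 21 glycolysis genes 15 fell and 3 rose (median -0.39), with the phosphofructokinase *Pfkp* from 292 and 295 to 38.2 and 30.3 CPM and the glucose transporter *Slc2a3* from 762 and 586 to 223 and 209 CPM. Of 16 hypoxia response genes 10 fell and 0 rose (0 at an unadjusted p under 0.05, 0 in DESeq2; median -0.78), among them *Vegfa*, from 32.1 and 40.5 to 7.73 and 7.35 CPM. Of 16 unfolded protein and stress response genes 9 fell and 3 rose (median -0.68, control lines -0.16). *Chac1*, a glutathione-degrading enzyme induced by ATF4, fell from 64.6 and 73.5 to 10.6 and 10.6 CPM, and in the controls from 47.1 and 47.6 to 20.3 and 17.4 CPM (difference -1.36, SE 0.13, adjusted p = 6.39e-10).

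Set beside the controls, whose stage change shares no library with that of the *Zmym2*-/- lines, 3661 genes rose in both genotypes, 3494 fell in both and 159 were called in opposite directions (94 rising and 65 falling in the *Zmym2*-/- lines). The 2 log2 changes correlated across genes at r = 0.737, a description over genes that are not independent. A further 2184 genes passed the test in the *Zmym2*-/- lines alone, 459 of them with an interaction call, and 2350 in the controls alone, 559 with one, so being called in 1 genotype was in most cases not a shown difference. Interaction calls numbered 2328 in all, and 989 without the replicate block (582 above, 407 below), all 989 among the 2328. Of the 20 genes of the naive list, 10 had a log2 change above that of the controls (6.94% of all genes tested) and 2 below it (5.41%). Among them *Klf4* stood at 353 and 395 CPM in control mESCs and 2.5 and 2.04 CPM in control EBs (difference 2.08, SE 0.19, adjusted p = 1.19e-10).

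Most interaction calls went with a difference that was already present in mESCs, a description, since the interaction is computed from the same libraries. Of the 1020 genes whose log2 change was below that of the controls, both *Zmym2*-/- mESCs lay above both control mESCs in 932 (30.3% of all genes tested) and below them in 7, while in EBs they lay above in 229 (26.1%) and below in 401 (25.4%). Of the 1308 genes whose log2 change was above that of the controls, both *Zmym2*-/- mESCs lay below both control mESCs in 1157 (30.4% of all genes), and in EBs 517 lay above and 302 below. Of the 1020, 661 rose in the controls, and 622 of these had a smaller change in the *Zmym2*-/- lines. Of the 1308, 817 fell in the controls, and 769 had a smaller change. The selection by the sign of the difference largely sets these counts, so nothing is concluded from them. In the opposite cases, 163 of the 1020 that fell in the controls and 214 of the 1308 that rose, it allows no smaller change, and 0 and 0 had one.

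The 6 genes with the smallest interaction p above the controls were *Cobl*, *Cpe*, *Ntn1*, *Scd1*, *Scd2* and *Nfkb1*. *Cobl*, an actin nucleator, went from 52.7 and 57.2 to 14.7 and 17 CPM, against 270.4 and 345 to 17.6 and 16.4 CPM in the controls (difference in log2 change 2.37, SE 0.12, adjusted p = 1.76e-17). *Cpe* (ENSMUSG00000037852, chromosome 8, 64592542 to 64693054), a carboxypeptidase, rose from 5.05 and 5.2 to 29 and 29.2 CPM and fell in the controls from 39.2 and 64.4 to 32.7 and 33.3 CPM (difference 3.12, SE 0.17, adjusted p = 5.55e-17). The axon guidance ligand *Ntn1* went from 57.7 and 50.7 to 9.02 and 11.9 CPM, against 161 and 139 to 5.01 and 2.58 CPM (difference 2.94). For *Cobl* and *Cpe* the mESCs of the genotypes lay far apart and the EBs close together, while for *Ntn1* the *Zmym2*-/- EBs also lay above the control EBs. The fatty acid desaturases *Scd1* and *Scd2* rose by 1.82 and 0.75 on the log2 scale (differences 1.54 and 1.20), and *Nfkb1*, an NF-κB subunit, by 0.27 (difference 1.52). The rise of *Nfkb1* was lost with any of the 4 *Zmym2*-/- libraries left out (adjusted p = 0.0739 at most). Below the controls they were *Pim2*, *Otx2*, *Vrtn*, *Dnmt3b*, *Manba* and *Zic2*. *Manba*, a lysosomal mannosidase, fell from 153 and 138 to 7.63 and 7.38 CPM, against 43 and 49.1 to 9.45 and 9.61 CPM (difference -2.01, SE 0.13, adjusted p = 2.37e-14). The zinc finger factor *Zic2* rose from 88.1 and 105 to 234 and 259 CPM, against 28.3 and 13.1 to 251 and 239 CPM (difference -2.27), and *Vrtn*, a vertebral number gene, from 37.8 and 46.9 to 170.4 and 179 CPM, against 9.08 and 6.73 to 171 and 159 CPM (difference -2.34).

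**Figure D5:**
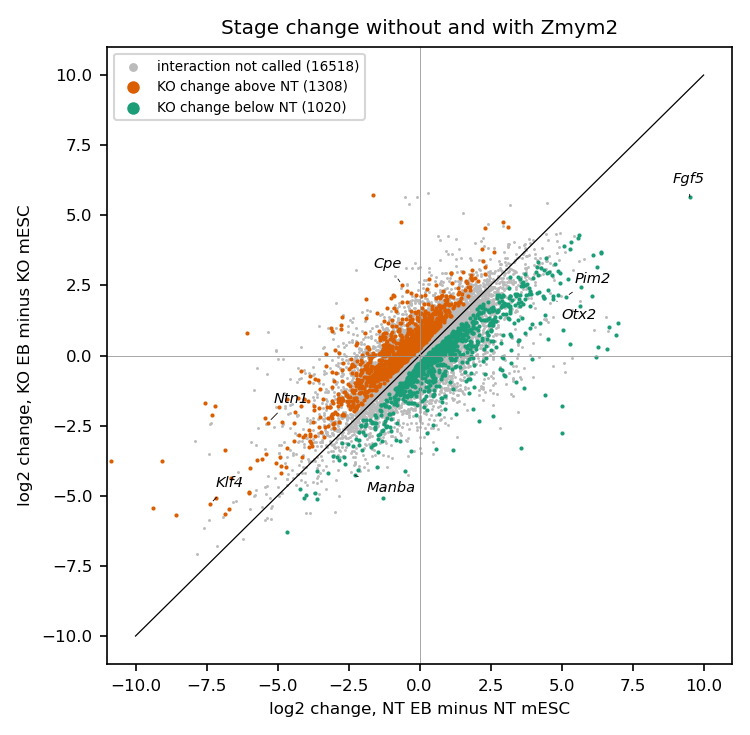
Log2 change from mESC to EB in the control (NT) lines (horizontal axis) and the *Zmym2*-/- (KO) lines (vertical axis), 1 point for each of 18846 genes, with the line of equal change in black. Genes whose change lay above (1308, orange) or below (1020, green) that of the controls lie on either side of the line, and r across genes was 0.737.

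The 2 *Zmym2*-/- lines differed from each other in single genes. *Mid1*, an X-linked ubiquitin ligase gene picked after its values were seen, stood at 1.12 and 36.7 CPM in mESCs of lines 1 and 2 and at 4.85 and 50.5 CPM in their EBs, so the stages overlapped although it was higher as EB in either line (log2 change 0.80, SE 0.15, adjusted p = 1.52e-05, and 0.693 without the replicate block). In the controls it stood at 52.6 and 45 CPM in mESCs and 90.6 and 90.3 CPM in EBs. Without either library of line 1 the log2 change of *Mid1* was 0.46, and without either of line 2 it was 2.11. The median change of the 20 genes of the naive list on log2(CPM + 0.5) was -3.86 in line 1 and -3.59 in line 2. For nascent mesoderm genes the medians of lines 1 and 2 lay on opposite sides of 0, at 0.38 and -0.09, as did those of the FGF and ERK genes, at -0.23 and 0.15.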

How the data were processed

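RNA-seq was analysed from *Zmym2*-/- and control mESC lines and from their EBs. Upstream, the authors used Trimmomatic 0.34 for trimming, STAR 2.7.8a for alignment (mm10) and Picard 2.9.0 for duplicates, and deposited raw counts per gene from HTSeq, in 1 table for mESCs and 1 for EBs. The version, annotation and strand setting of the counting are not given in the sources used here. The authors also deposited RPKM values from StringTie 1.3.5, which were used for marker sums and for an alternative test. The 8 normalized columns of these tables were not used.

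Genes in both count tables with at least 10 counts over the 4 *Zmym2*-/- libraries were tested with the quasi-likelihood test of edgeR 4.0.16 (R 4.3.3) after TMM scaling, in 1 fit of the 8 line libraries with each line as a block, which leaves 2 residual degrees of freedom beside the spread shared across genes. The study's methods name no block. Contrasts were EB against mESC in each genotype and their difference (stage by genotype interaction), with Benjamini-Hochberg adjustment over all genes tested and a call at an adjusted p under 0.05. SE is the standard error of a log2 change. Lines were paired because the labels give the samples the same numbers at both stages. That equal numbers mean the same line is an assumption. The line 1 minus line 2 differences of the stages correlated across genes at r = 0.329 in the *Zmym2*-/- lines and 0.113 in the controls. RPKM sums were taken as deposited. Alternatives were no replicate block, the 4 libraries of a genotype alone, DESeq2 1.42.0, RLE scaling or library totals, other filters on low counts, limma 3.58.1 on log2(RPKM + 0.1) or log2(RPKM + 1) with the line as a block, and each library left out in turn. The test was checked on simulated data.

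Gene lists were written for this work, and the members and lists were chosen with earlier results of these data known. Genes were named by rule: *Zmym2*, the genes the study measured by qPCR, the 12 largest rises and falls, the 6 smallest interaction p in each direction, and of each list its first 4 members and up to 4 with the smallest p. *Socs1*, *Jak1*, *Igfbpl1*, *Dpysl3*, *Fgfr1*, *Fgfr2*, *Dazl*, *M1ap* and *Zfp809* were named after their values were seen, as were those so marked in the text.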

Additional observations from a re-analysis of the deposited data

Results flagged for a closer look

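A number of named genes changed differently between the stages in the *Zmym2*-/- and the control lines, by the test of the stage by genotype interaction. The values below are the log2 change of the *Zmym2*-/- lines minus that of the controls, so a positive value is a change above that of the controls. In streak, mesoderm, endoderm and Hox genes, the values were 1.24 for *Axin2*, 0.93 for *Bmp4*, 1.04 for *Eomes*, -1.32 for *Fgf8*, 1.57 for *Gata4*, 2.62 for *Gata6*, -4.36 for *Hoxb1*, -3.65 for *Hoxb4*, -0.51 for *Krt18*, -0.58 for *Lefty2*, 2.35 for *Sox17* and 2.24 for *T*. Among naive and LIF pathway genes, the values were -0.56 for *Bcl3*, 1.22 for *Esrrb*, 0.52 for *Jak1*, 2.08 for *Klf4*, -2.01 for *Manba*, -0.96 for *Nr0b1*, 0.52 for *Pecam1*, 2.91 for *Prdm14*, 1.12 for *Socs3*, 0.36 for *Stat3*, 0.73 for *Tet2*, 2.00 for *Tfcp2l1* and 0.70 for *Zfp42*. The other named genes gave 0.33 for *Ccnd3*, -1.36 for *Chac1*, 2.37 for *Cobl*, 1.46 for *Col4a1*, 3.12 for *Cpe*, -0.79 for *Dnmt3l*, 0.32 for *Hmgcs1*, 1.22 for *Jam2*, 1.19 for *Lama1*, 0.61 for *Nefl*, 1.52 for *Nfkb1*, -0.77 for *Nnat* and 2.94 for *Ntn1*. Further values were -0.38 for *Pfkp*, 0.45 for *Phlda2*, 1.07 for *Phlda3*, 1.12 for *Pla2g1b*, -1.61 for *Rbfaos*, 1.54 for *Scd1*, 1.20 for *Scd2*, 0.55 for *Slc2a3*, -1.40 for *Spon1*, -0.83 for *Tubb3*, 3.36 for *Usp26* and -2.34 for *Vrtn*. For formative epiblast genes, the values were -0.88 for *Cdh2*, -1.28 for *Dnmt3a*, -1.83 for *Dnmt3b*, 0.74 for *Dpysl3*, -3.86 for *Fgf5*, 1.47 for *Fst*, -1.26 for *Igfbpl1*, -2.69 for *Otx2*, -3.05 for *Pim2*, -1.68 for *Pou3f1*, -1.35 for *Sall2* and -2.27 for *Zic2*. Germline genes gave 1.12 for *Dazl*, 1.13 for *Ddx4*, -0.45 for *Ifitm3*, 1.82 for *M1ap*, 1.46 for *Mov10l1*, 1.04 for *Piwil2*, 0.82 for *Rec8*, -0.41 for *Rnf17*, 0.95 for *Sohlh2*, 0.63 for *Stag3*, 2.26 for *Stra8* and 1.47 for *Tex15*. For the other FGF and ERK genes, the values were 0.63 for *Dusp4*, -0.87 for *Egr1*, -1.46 for *Fgf15*, -0.36 for *Fgfr1* and -1.19 for *Fgfr2*. In neural plate, Nodal pathway and general pluripotency genes, the values were -0.99 for *Nes*, -2.45 for *Pax6* and 0.32 for *Tdgf1*. All of these had an adjusted p under 0.05 in edgeR with Benjamini-Hochberg adjustment, and 29 of the 82 were not called without the replicate block. Leaving out 1 library moved the value of 19 of them by more than 1.5 times. Without a library of *Zmym2*-/- line 1 it was 0.70 or 0.68 for *Jam2*, 1.81 or 1.79 for *Lama1* and 5.34 or 5.31 for *Sox17*. Without a library of *Zmym2*-/- line 2 it was 0.59 for *Lama1*, -0.21 for *Pfkp*, 1.36 or 1.35 for *Sox17* and 0.18 for *Tdgf1*. Without a library of control line 1 it was -0.27 or -0.25 for *Bcl3*, -1.32 for *Egr1* (mESCs), 1.57 or 1.59 for *Eomes*, -5.79 for *Fgf5* (mESCs), 1.88 or 1.90 for *Jam2*, -0.24 or -0.22 for *Krt18*, 0.92 for *Nefl* (EBs), -1.29 or -1.27 for *Nnat*, 0.79 or 0.81 for *Pecam1*, -0.76 or -0.74 for *Rbfaos*, 0.83 for *Slc2a3* (EBs) and 0.51 or 0.53 for *Tdgf1*. Without a library of control line 2 it was -0.44 for *Dnmt3l*, -0.46 for *Egr1*, 0.53 for *Eomes*, -0.71 or -0.70 for *Fgfr2*, 0.67 for *Jam2*, 0.33 for *Nefl*, -0.26 for *Nnat*, 0.28 for *Pecam1*, 0.28 for *Phlda2*, -2.49 or -2.48 for *Rbfaos*, 0.30 for *Slc2a3*, 3.63 for *Stra8* and 0.12 for *Tdgf1*. Where 2 values are given, the first is without the mESC and the second without the EB library, and 1 value with a stage named is for that library, the other having moved it by less. Groups of 2 lines are too small to look for single libraries that stand apart.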

How the results depend on the processing

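The counts of genes rising (4876) and falling (4622) in the *Zmym2*-/- lines, and of those in the controls, stayed within 1.5 times under each alternative run. With 1 library left out they were 3627 to 4951 and 3475 to 4723 in the *Zmym2*-/- lines, and 3677 to 4816 and 3730 to 5089 in the controls. At 4-fold or more they were 497 to 688 rising and 672 to 718 falling. limma on log2(RPKM + 0.1) called 269 rising at 4-fold or more, and on log2(RPKM + 1) 47 rising and 158 falling. These runs kept only genes with at least 0.5 RPKM in at least 2 libraries. The parts of this filter and of the pseudocount in these lower counts were not tested. Interaction calls (1308 above and 1020 below the controls) were 582 and 407 without the replicate block and 614 and 535 in DESeq2. With 1 library left out they were 772 to 1190 and 567 to 887, with 772 and 641 without the EB of *Zmym2*-/- line 1, 665 below without its mESCs, 785 and 579 without the mESCs of control line 2, and 799 and 567 without its EB. Leaving out a library leaves 1 paired line in that genotype, which is assumed to vary like the others. Of the paired calls in the *Zmym2*-/- lines (9498), 8532 were also called without the block. No named gene reversed. Of 150 named genes, 133 kept their side of the threshold under all alternatives for the *Zmym2*-/- change, and 47 of 82 for the interaction. Of 629 list medians recomputed, 140 moved by more than the spread between the lines. Of the 37 lists, only 5 had a median that stayed within that spread under all alternatives. The cause of these shifts was not tested. At 1 CPM counting error is 14 to 17.7%, which limits what can be read of genes below that level.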

Other observations

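Genes of cell adhesion and matrix moved in both directions. Of 18 cadherin, keratin and junction genes tested, 12 rose and 3 fell from mESC to EB in the *Zmym2*-/- lines (median log2 change 0.59), with the mesenchymal cadherin *Cdh2* going from 5.99 and 5.61 to 18.1 and 15.9 CPM and the epithelial cadherin *Cdh1* from 552 and 553 to 743 and 767 CPM. Of 15 laminin, collagen and matrix genes, 5 rose and 8 fell (median -0.27). The laminin chain *Lama1* fell from 45.6 and 35.7 to 4.02 and 7.21 CPM, while the basement membrane collagen *Col4a1* rose from 17.5 and 19.3 to 75.7 and 75.8 CPM, against 82.1 and 44.1 to 99.2 and 82.9 CPM in the controls (difference in log2 change 1.46, SE 0.14, adjusted p = 2.31e-10). The log2 change lay above that of the controls in 8 of the 15 (6.94% of all genes tested) and below it in 2 (5.41%).

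Of 15 p53 target genes, 9 rose and 3 fell (median log2 change 0.23). *Ccng1*, a cyclin induced by p53, went from 119 and 104 to 234 and 231 CPM, and *Phlda3*, an AKT inhibitor, from 43.4 and 43.4 to 137 and 127 CPM. Of 21 imprinted genes, 11 rose and 4 fell (median 0.35), with *Nnat* from 9.06 and 6.37 to 41.9 and 25 CPM and *Phlda2*, a growth-limiting placental gene, from 131 and 113 to 56.5 and 46.9 CPM. Of 13 interferon response genes, 3 rose and 6 fell (median -0.52), among them *Ifitm3*, which went from 322 and 291 to 54.5 and 52.2 CPM. Of 17 cell cycle regulators, 4 rose and 7 fell (median -0.14), with *Ccnd3*, a D-type cyclin, from 138 and 135 to 54.4 and 49.7 CPM. Of 689 genes on the X chromosome, 207 rose (30%) and 132 fell (19.2%). Over all genes tested 25.9% rose and 24.5% fell, and lists of this paragraph near these shares show nothing particular to their members.

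Genes listed in only 1 of the 2 count tables could not be compared by counts. The EB table alone held 1216 genes, of which 13 had at least 100 counts over the 2 *Zmym2*-/- EBs, and the mESC table alone held 1233, of which 17 did over the 2 mESCs. They carried 0.0213% and 0.0287% of the *Zmym2*-/- counts. The largest by count were *Sox14*, a neural HMG-box factor with 290 counts in the EBs, and *H2-M6-ps*, a pseudogene with 403 counts in the mESCs. Both were chosen after their values were seen.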
